A study of Mus musculus with 12 samples.

Results

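The genes described here encode the machinery of mitosis and chromosome segregation, from cyclins and checkpoint proteins to spindle motors and the cytokinesis apparatus. The list names 44 genes, chosen by function with earlier results of these data known. Of these, 39 had at least 1 probe set annotated to that gene alone, among 8251 genes analysed on the array. Each gene is represented by its probe set with the highest mean log2 intensity over all 12 arrays. Bub1b, Ccnb1, Cenpf, Hmmr and Tpx2 were not analysed here. No filter on low values was applied.

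The arrays held RNA from cell suspensions of mouse thymus, all of strain C57Bl/6. The leukemia group comprised 8 arrays of leukemic cells taken from terminally ill mice carrying TEL-JAK2, a fusion of the transcription factor TEL (Etv6) with the tyrosine kinase Jak2. The comparison group comprised 4 arrays of wild-type thymocytes taken at 2 months of age. No age of the leukemic mice and no promoter driving the fusion is stated in the labels. Arrays are numbered within each group in accession order. The labels do not say whether each array stands for its own mouse, and the p-values cover the spread among arrays, part of which may be technical.

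Entry into mitosis depends on CDK1 bound to cyclin A or cyclin B. The spindle checkpoint holds back the anaphase-promoting complex until all kinetochores are attached, after which securin and cyclin B are degraded and sister chromatids part. Most of the genes are transcribed only late in the cell cycle, so their summed RNA in a tissue reflects how many cells are in G2 and mitosis as well as the level per cell. In the thymus much of the division takes place in immature thymocytes before and around the start of the double-positive stage, whereas most double-positive cells are at rest. In RNA from a whole suspension, fewer dividing cells and less RNA per cell cannot be told apart.

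Many promoters of this class carry a CHR element (cell cycle genes homology region), read by the MuvB complexes, and CCAAT boxes, read by NF-Y. RefSeq promoter windows of GRCm38.p6, reaching from 250 bases before to 50 bases after a gene start, were found for 36 of the 44 genes, in 39 windows. The 6 windows below are shown because they carry the pattern and its exceptions. Ect2, Kif11, Bub3 and Aurka had the largest moderated statistics among genes lower in leukemia with both elements, Cks1b holds both elements without passing the test, and Pttg1 holds neither. Sequences run 5′ to 3′ on the strand of the gene, and capitals mark TTTGAA and CCAAT or their reverse complements.
Ect2: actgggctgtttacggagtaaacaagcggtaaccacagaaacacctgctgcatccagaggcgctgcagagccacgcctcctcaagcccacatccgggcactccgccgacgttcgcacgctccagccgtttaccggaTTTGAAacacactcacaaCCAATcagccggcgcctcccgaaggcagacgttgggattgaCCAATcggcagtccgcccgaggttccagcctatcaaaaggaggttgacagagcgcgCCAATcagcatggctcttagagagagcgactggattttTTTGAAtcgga
Kif11: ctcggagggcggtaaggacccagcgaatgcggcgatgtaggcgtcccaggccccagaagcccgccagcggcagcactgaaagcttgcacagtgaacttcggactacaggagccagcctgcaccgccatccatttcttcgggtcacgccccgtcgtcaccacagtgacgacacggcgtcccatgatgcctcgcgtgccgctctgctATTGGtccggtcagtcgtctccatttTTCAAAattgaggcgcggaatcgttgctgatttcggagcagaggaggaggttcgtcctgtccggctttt
Bub3: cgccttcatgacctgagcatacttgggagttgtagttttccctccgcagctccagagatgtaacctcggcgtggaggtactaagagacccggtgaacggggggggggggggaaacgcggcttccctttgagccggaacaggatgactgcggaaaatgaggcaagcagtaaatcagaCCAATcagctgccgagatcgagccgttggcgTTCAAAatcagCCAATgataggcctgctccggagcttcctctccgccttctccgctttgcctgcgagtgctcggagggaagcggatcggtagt
Aurka: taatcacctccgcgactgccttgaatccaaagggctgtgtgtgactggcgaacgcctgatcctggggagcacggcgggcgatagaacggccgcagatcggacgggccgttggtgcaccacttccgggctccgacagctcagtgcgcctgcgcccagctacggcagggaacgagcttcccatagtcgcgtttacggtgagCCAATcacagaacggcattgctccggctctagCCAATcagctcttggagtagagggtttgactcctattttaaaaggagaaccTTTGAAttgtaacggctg
Cks1b: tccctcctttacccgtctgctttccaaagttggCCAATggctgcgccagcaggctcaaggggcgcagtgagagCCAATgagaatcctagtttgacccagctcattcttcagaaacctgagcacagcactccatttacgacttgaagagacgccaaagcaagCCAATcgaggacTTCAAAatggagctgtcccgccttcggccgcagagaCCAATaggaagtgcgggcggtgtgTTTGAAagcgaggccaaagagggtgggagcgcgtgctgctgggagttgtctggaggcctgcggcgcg
Pttg1: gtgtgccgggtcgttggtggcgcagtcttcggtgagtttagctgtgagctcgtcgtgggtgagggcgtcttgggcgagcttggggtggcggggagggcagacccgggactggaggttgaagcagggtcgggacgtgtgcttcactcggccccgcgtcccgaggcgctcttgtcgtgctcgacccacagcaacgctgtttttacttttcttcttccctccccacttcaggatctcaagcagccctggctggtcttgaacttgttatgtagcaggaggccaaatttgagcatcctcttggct

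These windows lie on the minus strand at chr3:27153829-27154128 for Ect2, chr2:172370521-172370820 for Aurka, chr3:89418242-89418541 for Cks1b and chr11:43425932-43426231 for Pttg1. They lie on the plus strand at chr19:37376132-37376431 for Kif11 and chr7:131560120-131560419 for Bub3. TTTGAA on either strand occurred in 29 of the 39 windows (74.4%), against 17.9% of all 32851 windows and 12.9% of the 8412 windows of genes on the array. CCAAT on either strand occurred in 32 of 39 windows (82.1%), against 37.4% of all windows, and 2 or more copies in 23 (59.0%), against 11.7%. Both elements were present in 27 windows (69.2%), against 6.95% of all windows. The median GC content was 58.7% in the windows of mitosis genes, 52.7% in all windows and 59.7% in the windows of genes on the array. An E2F-type element, searched as TTTCCCGC, TTTCGCGC, TTTGCCGC or TTTGGCGC on either strand, was found in 1 window, that of Cdk1, against 2.26% of all windows. In the windows of genes on the array the shares were 37.0% for CCAAT and 13.6% for 2 or more copies of it. They were 5.28% for both elements and 3.52% for an E2F-type element. No searched word contains another. A match is a description of the letters and not evidence of binding.

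**Figure D1:**
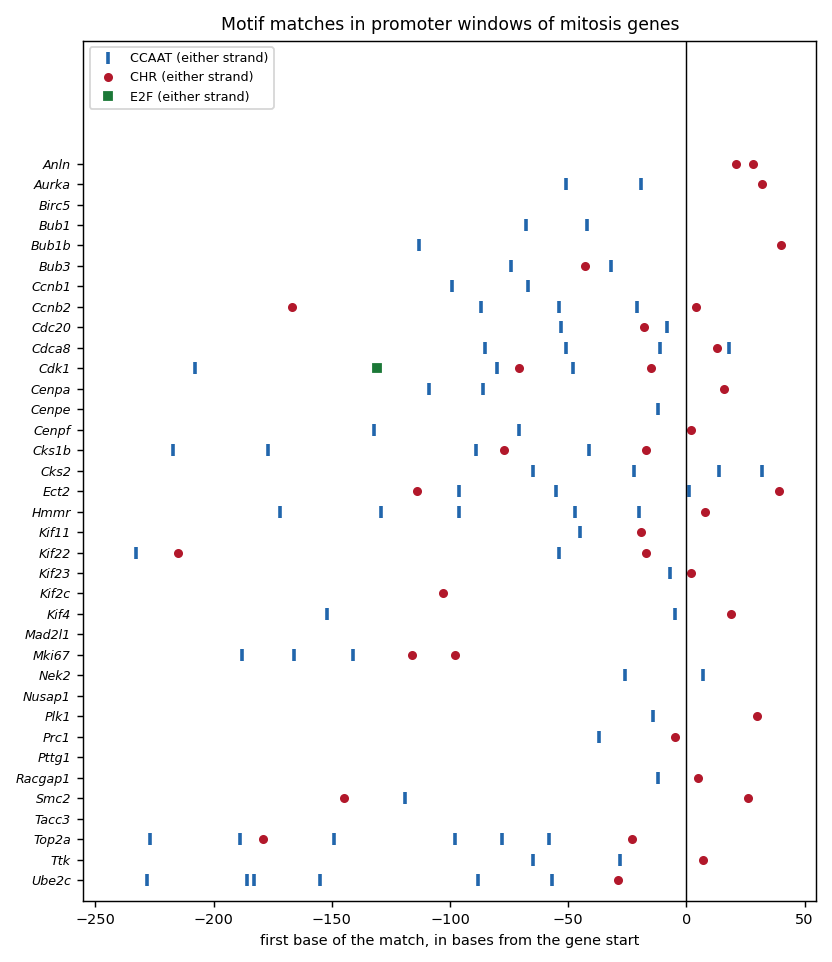
Matches to the CHR, NF-Y box and E2F-type words given in the text on either strand, by distance in bases from the gene start (x axis), in the first listed window of each of 36 mitosis genes (y axis). Of 35 CHR matches 28 lie from 100 bases before the start onward, and Birc5, Mad2l1, Nusap1, Pttg1 and Tacc3 hold none of these motifs.

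In these first windows the CHR matches had a median position of -15, where 0 is the first base after the 250 upstream bases, and the CCAAT matches a median of -67. The Kif11 window printed above has its CCAAT match at -45 and its CHR match at -19, and the Cdc20 window has CCAAT at -53 and -8 and CHR at -18. Among 21 analysed genes whose first window held both, 15 were lower in leukemia (median log2 change -0.87), and among 11 with a window without both, 9 were lower (median -0.89).

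The design sets leukemic cells against normal cells of the same organ. Mitosis genes were lower in leukemia: of the 39 analysed, 30 fell, 0 rose and 9 did not pass the test (limma, Benjamini-Hochberg adjusted p under 0.05 over all genes). Over all 8251 genes 17.3% passed, 11.9% lower and 5.41% higher, and over all 12422 probe sets 9.88% were lower and 4.65% higher. The median log2 change was -0.79 over the mitosis genes and 0.0037 over all genes, and 38 of 39 values lay below 0. At an unadjusted p under 0.05, 33 mitosis genes were lower and 0 higher by limma, and the same numbers were found by an exact rank-sum test. At that threshold 1517 of all 8251 genes (18.4%) were lower and 827 higher by limma, and 1482 (18.0%) lower and 877 higher by the rank-sum test. At an adjusted p under 0.05 the rank-sum test gave 23 mitosis genes lower and 0 higher, and 670 of all genes lower and 347 higher. At least 2-fold decreases past the limma test were found for 10 of the 39 mitosis genes, against 1.38% of all genes. For 23 of them all 8 leukemias lay below all 4 thymocyte arrays, as they did for 8.11% of all genes, and for 0 did all leukemias lie above (4.21% of all genes).

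**Figure D2:**
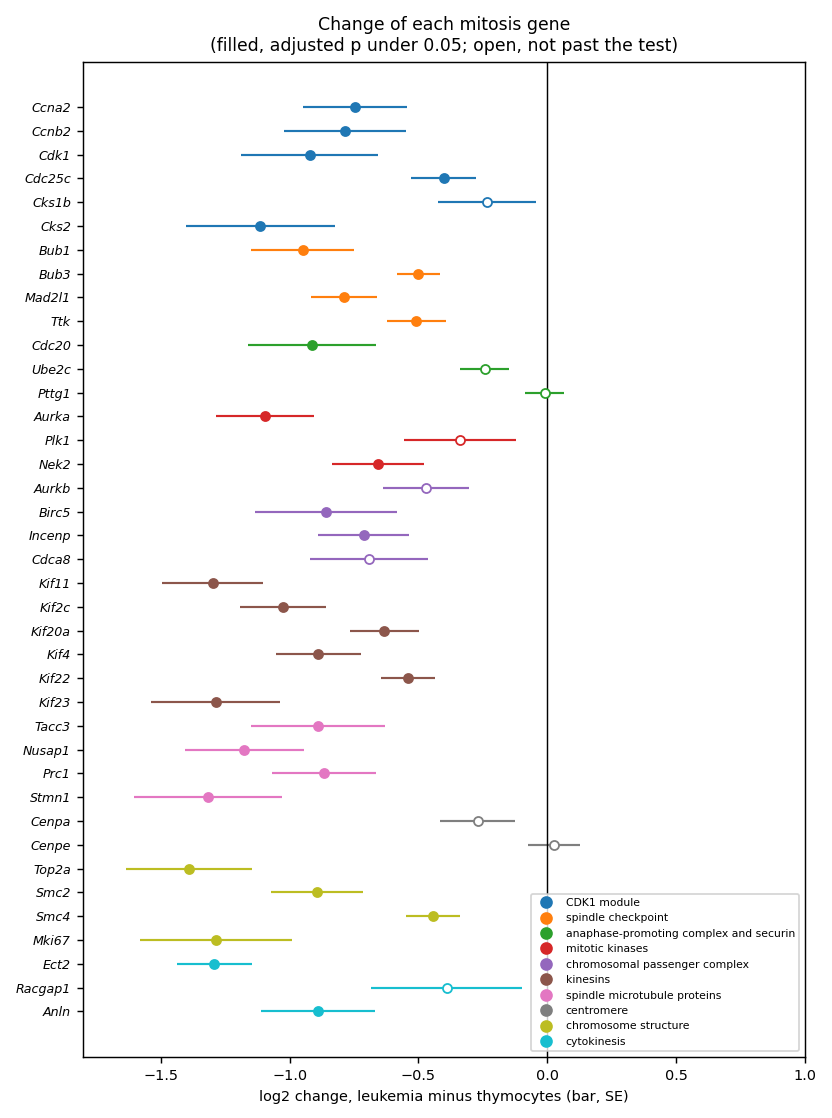
Change of each mitosis gene as log2 intensity in leukemia minus thymocytes (x axis), with bars for the standard error of the limma fit, over 8 leukemias and 4 thymocyte arrays; filled points passed an adjusted p under 0.05. The values run from -1.39 for Top2a to 0.03 for Cenpe.

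Of the CDK1 module, 5 of 6 genes fell. Cdk1, the kinase itself, had log2 intensities of 8.85, 9.11, 8.76 and 9.73 in the thymocyte arrays, and 7.25, 8.27 and 8.79 as the lowest, median and highest leukemia. Only leukemia 6, at 8.79, reached into the thymocyte range, and the change was -0.92 (SE 0.27, limma adjusted p = 0.029). The S and G2 phase cyclin Ccna2 fell by 0.75 (SE 0.20, limma adjusted p = 0.0205) and the mitotic cyclin Ccnb2 by 0.78 (SE 0.24, limma adjusted p = 0.0362). In each case 7 of 8 leukemias lay below every thymocyte array. Ccnb2 missed the threshold in 7 of the 12 fits that left out 1 array, those without leukemia 3, 4 or 8 or any thymocyte array. Cdc25c, a phosphatase that activates CDK1, fell by 0.40 (SE 0.13, limma adjusted p = 0.0442) on a probe set whose name marks possible cross-hybridization. A second probe set of Cdc25c gave -0.18 (limma adjusted p = 0.297 over all probe sets).

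The CKS proteins are small subunits that bind CDKs, and their genes gave different values. Cks2 had log2 intensities of 8.74, 8.95, 8.57 and 9.50 in thymocytes and 6.73, 8.004 and 8.53 as the lowest, median and highest leukemia, without overlap, and fell by 1.11 (SE 0.29, limma adjusted p = 0.0169). Cks1b, at 8.94, 9.02, 8.74 and 9.34 in thymocytes and at 8.09, 8.86 and 9.24 in leukemias, overlapped and had a change of -0.23 (SE 0.19, limma adjusted p = 0.469). The difference between the CKS genes was not tested.

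All 4 spindle checkpoint genes analysed fell, and each separated the groups fully. Mad2l1, which forms the inhibitor of the anaphase-promoting complex, had log2 intensities of 8.06, 8.19, 7.93 and 8.34 in thymocytes and 7.05, 7.33 and 7.72 in the lowest, median and highest leukemia (change -0.79, SE 0.13, limma adjusted p = 0.00084). Bub3, which carries checkpoint kinases to the kinetochore, was at 10.23, 10.26, 10.20 and 10.36 against 9.53, 9.77 and 9.99 (change -0.50, SE 0.08, limma adjusted p = 0.0011). The kinase gene Ttk (MPS1) fell by 0.51. The kinase gene Bub1 was at least 1.66-fold lower, a bound because its leukemia mean of 5.31 lay below the control level, the 95th percentile of 19 probe sets for non-mouse transcripts (measured change -0.95, limma adjusted p = 0.0048). Other probe sets of Bub1 and Bub3 lay below that level in both groups and did not pass.

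Of the genes around the anaphase-promoting complex, 1 of 3 fell. Cdc20, the activator of the complex in mitosis, was at 9.72, 9.998, 9.67 and 10.27 in thymocytes and at 8.17, 9.004 and 9.69 in the lowest, median and highest leukemia (change -0.91, SE 0.25, limma adjusted p = 0.0207). The groups touched only through leukemia 6. Ube2c, the ubiquitin-conjugating enzyme of the complex, had a change of -0.24 (limma adjusted p = 0.103). Pttg1, which encodes securin, the inhibitor of separase, was at 7.96, 8.09, 8.12 and 8.14 in thymocytes and at 7.88, 8.11 and 8.21 in leukemias. Its change was -0.01 (SE 0.08, limma adjusted p = 0.952), with a sign that turned under quantile normalization (0.05) and under centring of the arrays (0.0014), and 3 leukemias lay above and 2 below every thymocyte array. These probe sets of Ube2c and Pttg1 carry suffixes for possible cross-hybridization. A second probe set of Pttg1, without a suffix and below the control level in both groups, gave -0.18 (limma adjusted p = 0.197 over all probe sets).

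Among mitotic kinases, Aurka, the centrosomal Aurora kinase, fell 2.14-fold. It was at 7.22, 7.51, 7.195 and 7.83 in thymocytes and 5.89, 6.22 and 7.08 in leukemias (change -1.09, SE 0.19, limma adjusted p = 0.0014). Nek2, a kinase of centrosome separation, fell by 0.66 without overlap of the groups (SE 0.18, limma adjusted p = 0.0206). Plk1, the polo-like kinase, had a change of -0.34 (SE 0.22, limma adjusted p = 0.341) and overlapped, with leukemias 1, 6 and 7 at 9.04, 9.33 and 8.84 inside the thymocyte range of 8.74 to 9.51. All 3 probe sets of Plk1 carry cross-hybridization suffixes, and their changes over all probe sets ranged from -0.65 to -0.17 without passing. With title numbers as a block Plk1 passed (-0.49, limma adjusted p = 0.0242).

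The chromosomal passenger complex corrects kinetochore attachments and then guides cytokinesis, and 2 of its 4 genes fell. The scaffold gene Incenp fell by 0.71 (SE 0.18, limma adjusted p = 0.0131), with every leukemia, from 7.76 to 8.77, below the thymocytes at 8.83 to 9.30. A second Incenp probe set, above the control level, gave -0.17 (limma adjusted p = 0.571 over all probe sets), and with the mean of both the call was lost (-0.44, limma adjusted p = 0.09). Birc5, which encodes survivin, fell by 0.86 (SE 0.28, limma adjusted p = 0.0478), and leukemia 1, at 8.399, lay inside the thymocyte range. Birc5 stands close to the threshold, and missed it in the fit over all probe sets (limma adjusted p = 0.0533). Cdca8 (borealin) had a change of -0.69 (SE 0.23, limma adjusted p = 0.0538) and the kinase gene Aurkb one of -0.47 (SE 0.17, limma adjusted p = 0.0734). With title numbers as a block both passed, Cdca8 at -0.81 (limma adjusted p = 0.0119) and Aurkb at -0.58 (limma adjusted p = 0.0029). Aurkb also passed without leukemia 6 (limma adjusted p = 0.0139), and Cdca8 without leukemia 1 (0.0215) or leukemia 6 (0.0304).

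**Figure D3:**
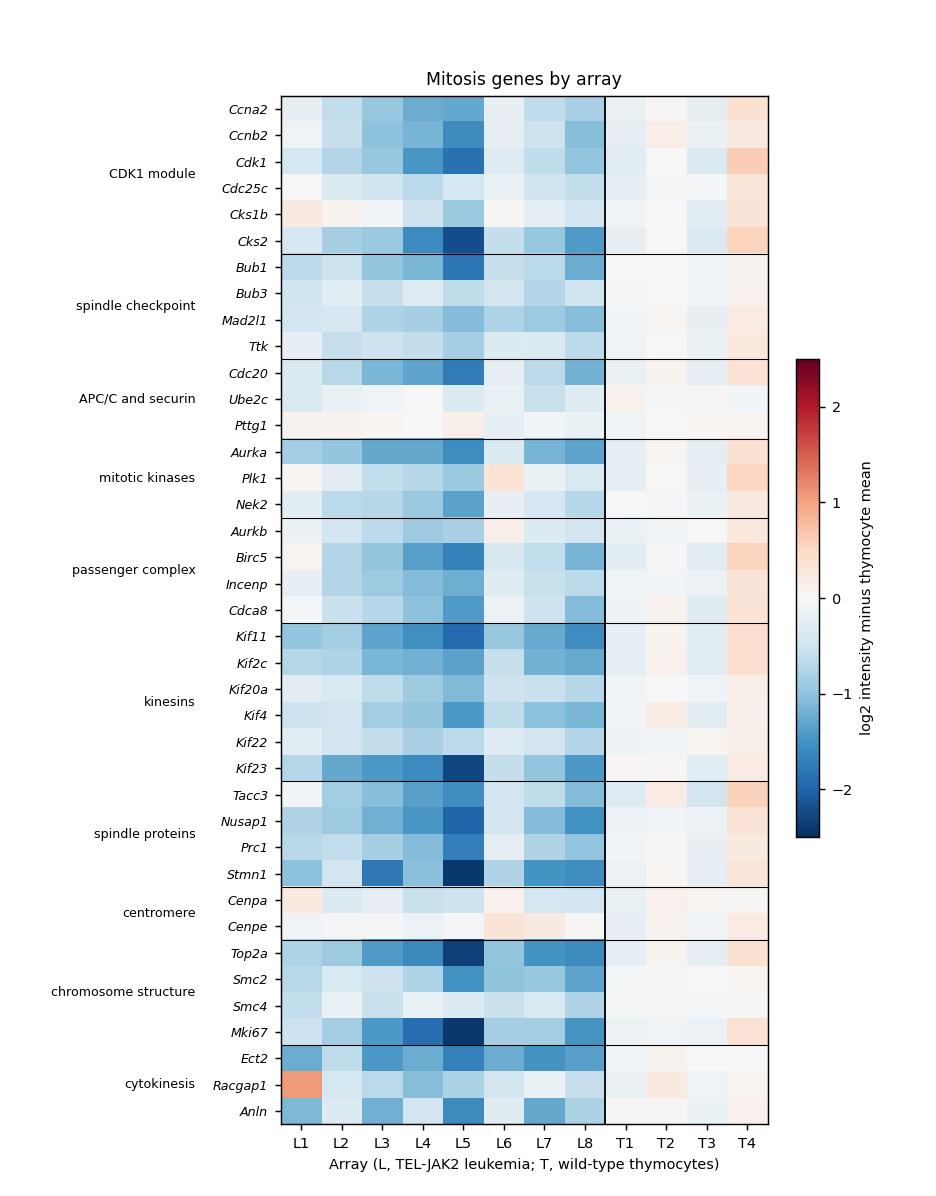
Log2 intensity of 39 mitosis genes minus the mean of the 4 thymocyte arrays (colour; blue, lower; red, higher) in 8 leukemias (L1 to L8) and 4 thymocyte arrays (T1 to T4), with genes grouped by role. L5 is the darkest column, T4 stands above the other thymocyte arrays, and Racgap1 is high in L1.

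All 6 kinesin genes fell, and none overlapped between the groups. Kif11, the motor that pushes spindle poles apart, was at 7.61, 7.92, 7.55 and 8.23 in thymocytes and at 5.88, 6.53 and 6.96 in the lowest, median and highest leukemia, a 2.46-fold decrease (change -1.30, SE 0.19, limma adjusted p = 0.00049). Kif23, a motor of the central spindle, was at 8.72, 8.72, 8.44 and 8.90 against 6.42, 7.34 and 8.09 (change -1.29, SE 0.25, limma adjusted p = 0.0028). Kif2c, a microtubule depolymerase at centromeres, fell by 1.02 (SE 0.17), and Kif4, a chromosome-bound motor, by 0.89 (SE 0.16). Kif20a, a motor of cytokinesis, and Kif22, a chromosome arm motor, fell by 0.63 and 0.54 on probe sets marked for possible cross-hybridization. The other probe set of Kif20a gave a change of similar size, -0.74, that did not pass (limma adjusted p = 0.0972 over all probe sets).

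All 4 genes for spindle microtubule proteins fell. Stmn1 (stathmin), which binds tubulin and destabilizes microtubules, was at 11.05, 11.23, 11.00 and 11.50 in thymocytes and at 8.79, 9.92 and 10.74 in leukemias, a 2.49-fold decrease (change -1.32, SE 0.29, limma adjusted p = 0.0058). Its leukemias spread widely (SD 0.62, against 0.23 in thymocytes) and still lay below every thymocyte array. A second probe set of Stmn1, below the control level in both groups, gave 0.02 (limma adjusted p = 0.892 over all probe sets). Nusap1, a microtubule-bundling protein, fell by 1.18 (SE 0.23) on a probe set marked for possible cross-hybridization. The other probe set of Nusap1, below the control level in both groups, gave -0.21 (limma adjusted p = 0.275 over all probe sets). Prc1, which bundles the antiparallel microtubules of the midzone, fell by 0.87 (SE 0.20). Nusap1 and Prc1 both separated the groups without overlap. Tacc3, a centrosomal and spindle protein, was at least 1.26-fold lower, with its leukemia mean below the control level and 1 of 8 leukemias above it (measured change -0.89, limma adjusted p = 0.0304).

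Of the genes for chromosome structure, all 4 fell and none overlapped. Top2a, the topoisomerase that untangles sister chromatids, was at 8.59, 8.91, 8.57 and 9.204 in thymocytes and at 6.47, 7.35 and 8.04 in the lowest, median and highest leukemia. Its decrease of 2.62-fold (change -1.39, SE 0.25, limma adjusted p = 0.0015) had the greatest size among the 39 genes. Mki67, the Ki-67 antigen that coats mitotic chromosomes and marks cycling cells, was at 8.98, 9.01, 8.96 and 9.46 against 6.68, 7.96 and 8.59 (change -1.29, SE 0.30, limma adjusted p = 0.0081). A second probe set of Mki67, below the control level in both groups, gave -0.20 (limma adjusted p = 0.108 over all probe sets). The condensin core subunits Smc2 and Smc4 fell by 0.89 (SE 0.18) and 0.44 (SE 0.11). The 2 centromere genes analysed did not pass. Cenpa, the centromeric histone H3 variant, had a change of -0.27 (SE 0.15, limma adjusted p = 0.253), with 6 leukemias below and 2 above every thymocyte array. With array weights Cenpa passed (-0.35, limma adjusted p = 0.0116), as it did within the arrays with a title number of 4 digits (-0.40, limma adjusted p = 0.0361). The probe sets of Cenpe, a kinetochore motor, lay below the control level on all arrays and gave no usable comparison.

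Of the cytokinesis genes 2 of 3 fell. Ect2, the exchange factor that activates RhoA at the cleavage site, was at 7.65, 7.82, 7.71 and 7.74 in thymocytes and at 6.04, 6.43 and 7.09 in leukemias. Its decrease of 2.45-fold (change -1.29, SE 0.15, limma adjusted p = 5.3e-05) had the smallest p of the 39 genes. Anln (anillin), a scaffold of the contractile ring, fell by 0.89 (SE 0.22, limma adjusted p = 0.0129). Racgap1, the partner of Kif23 in centralspindlin, was at 7.43, 7.85, 7.52 and 7.68 in thymocytes and at 6.56, 7.09 and 8.68 in leukemias, a change of -0.39 that did not pass (limma adjusted p = 0.428). Leukemia 1 alone lay above the thymocytes, at 8.68, and without it Racgap1 changed by -0.60 and passed (limma adjusted p = 0.0124).

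**Figure D4:**
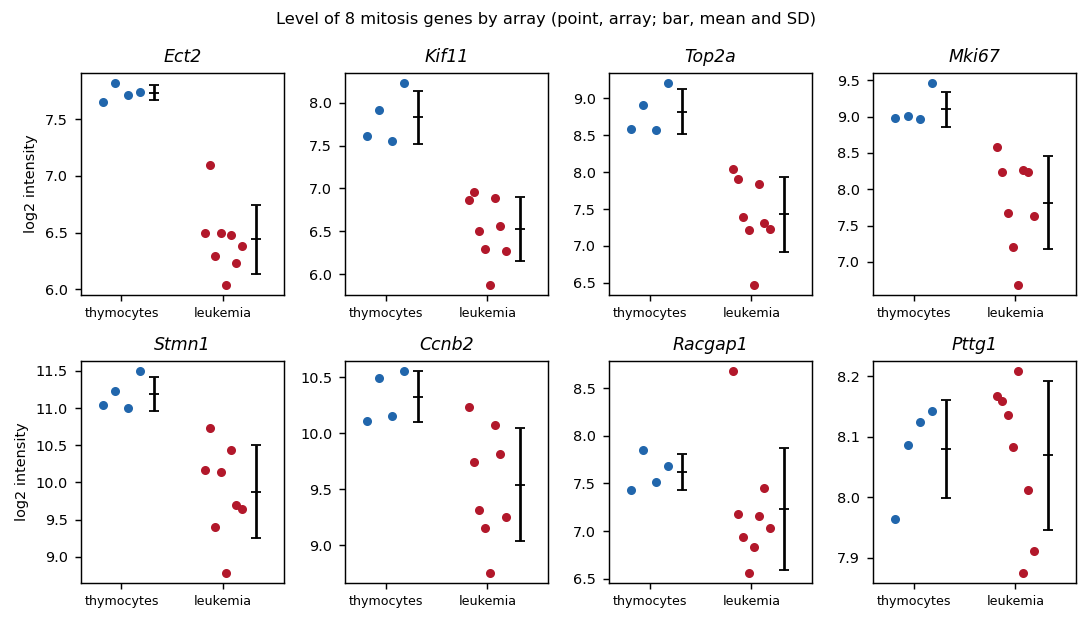
Log2 intensity (y axis) of 8 mitosis genes on each thymocyte array (blue, n = 4) and leukemia array (red, n = 8), with black bars for the mean and SD; scales differ between panels. Ect2, Kif11, Top2a, Mki67 and Stmn1 separate the groups, Ccnb2 overlaps through leukemia 1, Racgap1 has 1 high leukemia and Pttg1 overlaps throughout.

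The decrease varied between leukemias and was seen in most roles in each of them. The mean over the 39 genes, as log2 minus the thymocyte mean, was -0.37, -0.54, -0.84, -0.97, -1.31, -0.40, -0.70 and -0.94 in leukemias 1 to 8, and -0.13, 0.03, -0.16 and 0.26 in the thymocyte arrays. Every leukemia lay below every thymocyte array. Leukemia 5 was the lowest of the 8 for 29 of 39 genes. Leukemias 1 and 6 were the highest for 15 and 13 genes, and leukemia 2 for 8. Leukemia 1 lay below all thymocytes for 28 of the 39 genes and leukemia 8 for 38, while 32.2% and 31.6% of all genes did so in these arrays.

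The kinesin mean ranged from -1.46 in leukemia 5 to -0.57 in leukemia 1, and that of spindle microtubule proteins from -1.92 in leukemia 5 to -0.48 in leukemia 6. The passenger complex reached closer to thymocytes, with -0.09 in leukemia 1 and -0.18 in leukemia 6, against thymocyte arrays from -0.18 to 0.37. The mean of the CDK1 module was -0.16 in leukemia 1 and -0.25 in leukemia 6. In these leukemias the kinesin mean was -0.57 and -0.60. Differences between roles were not tested. The SD over leukemias exceeded that over thymocytes for 36 of 39 genes, with medians of 0.38 and 0.20, and for 6515 of all 8251 genes.

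Among thymocytes, array 4 was the highest for 33 of 39 genes and array 3 the lowest for 26. Array 4 is the thymocyte array without a title number of 4 digits, and whether these numbers mark a batch is not stated. Without it, 20 of 39 mitosis genes fell, and leaving out any other single array left 21 to 32. With title numbers as a block 33 fell. Within the arrays with 4 digits (4 leukemias, 3 thymocyte arrays) 31 fell and the mean change was -0.83. Within the others (4 leukemias, 1 thymocyte array) the mean change was -0.87 and all 39 values lay below 0, with 0 past the adjusted threshold. At an unadjusted p under 0.05 limma gave 28 lower and 0 higher there, against 7.87% of all genes lower and 3.28% higher. The lone thymocyte array of that fit is array 4, the highest for 33 of the 39 genes.

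**Figure D5:**
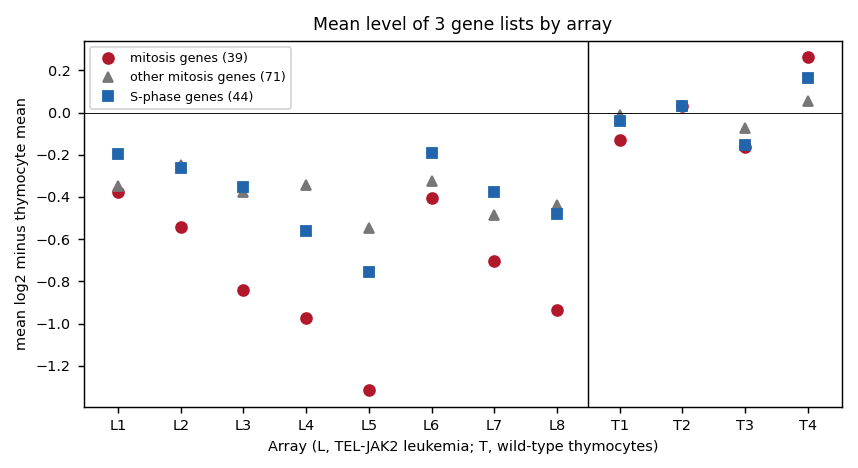
Mean log2 intensity minus the thymocyte mean (y axis) for 39 mitosis genes, 71 other mitosis genes and 44 S-phase genes on each array (x axis; L1 to L8, leukemias; T1 to T4, thymocytes). The mitosis genes of all 8 leukemias lie below all thymocyte arrays, and leukemia 5 is lowest for all 3 lists.

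Of 128 further genes of mitosis in 8 groups, 71 were analysed, of which 39 fell, 3 rose and 29 did not pass. The median change was -0.36. Over all 8251 genes 11.9% were lower and 5.41% higher, and the share of higher genes among the 71 is close to the latter. Of the 39 counted as lower, Pds5b (cohesin), Zw10 (kinetochore) and Spag5 (spindle), named after their values were seen, lay below the control level in both groups. Their size is not interpretable. Cohesin, which holds sister chromatids together, had 6 of 8 genes lower: Rad21 fell by 0.94 (SE 0.09, limma adjusted p = 1.4e-05) Smc3 had a change of -0.65 (limma adjusted p = 0.002), and Stag1 was at least 1.44-fold lower with leukemias near the control level. Of 10 genes of the anaphase-promoting complex 6 fell, among them Anapc1 (-0.36), Cdc26 (-0.34) and Ube2s (-0.59), and the subunit gene Anapc11, named after its value was seen, rose by 0.60. At the kinetochore 4 of 7 fell, with Cenpc1 at -0.52, Spdl1 at -0.77 and Cenpk at least 1.51-fold lower. Of spindle motors and microtubule genes 6 of 13 fell, including Ckap5, a microtubule polymerase (-0.95, SE 0.11), the depolymerase gene Kif2a (at least 1.04-fold lower, with leukemias near the control level), and Tubb5, a tubulin gene (-0.52, on a probe set marked for possible cross-hybridization).

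Among 9 centrosome genes 3 fell and 2 rose. Plk4, the kinase of centriole duplication, fell by 0.86 (SE 0.17) and Nedd1, which recruits gamma-tubulin, by 0.58, while the kinase genes Nek7 and Nek6 (the latter named after its value was seen) rose by 0.43 and 0.33. Of 7 regulators of mitotic entry 4 fell, with Ccnf at -1.19 (SE 0.17), Cdca3 at -0.78 on a probe set marked for possible cross-hybridization, and the kinase gene Wee1 at least 1.02-fold lower. The condensin gene Ncaph fell by 0.86, and Ncaph2 had a change of -0.28 that did not pass. Of 15 cell cycle transcription factor genes 9 fell and 6 did not pass. E2f8, a repressor among E2F factors, fell by 1.202 on a probe set marked for possible cross-hybridization (SE 0.11, limma adjusted p = 1.1e-05), the MuvB subunit gene Lin9 by 0.69 and Rbl1 (p107) by 1.04. The genes of the 3 NF-Y subunits, named after their values were seen, were also lower, with Nfya at -0.75, Nfyb at -0.58 and Nfyc at -0.43. Foxm1, also named after its value was seen, fell by 0.32 on a probe set marked for possible cross-hybridization. Mybl2, named in the same way, had a change of -0.23 that did not pass (limma adjusted p = 0.368).

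Of 44 genes of DNA replication and S phase, 18 fell, 0 rose and 26 did not pass, with a median change of -0.37. Over all genes 11.9% were lower at the same adjusted threshold. At an unadjusted p under 0.05 limma gave 27 lower and 1 higher, and the exact rank-sum test 25 lower. By these tests 18.4% and 18.0% of all genes were lower. Rrm2, a subunit of ribonucleotide reductase, had the largest statistic (-1.72, SE 0.25), followed by the kinase gene Cdc7 (-0.96) and the licensing factor gene Cdc6 (-1.32). Ccne2, named after its value was seen, was counted as lower while below the control level in both groups. The S-phase mean was -0.20, -0.26, -0.35, -0.56, -0.75, -0.19, -0.38 and -0.48 in leukemias 1 to 8, so leukemia 5 was lowest and leukemias 1 and 6 highest, as for the mitosis genes. Whether the lists differ in size of change was not tested.

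Markers of the T lineage were present in both groups, with a summed intensity of 13719 to 24475 in leukemias and 21200 to 22254 in thymocytes over 11 genes, of which 1 rose and 2 fell. Markers of double-positive thymocytes summed to 3750 to 15455 in leukemias and 20512 to 21241 in thymocytes, with 5 of 9 genes lower. Cd4, Cd8a and Cd8b1 stand in both lists, so their intensities enter both sums and Cd4 counts as lower in each. Over all genes 11.9% were lower and 5.41% higher. Macrophage markers summed to 931 to 4315 in leukemias and 980 to 1272 in thymocytes, and leukemias 3, 5 and 7 had 2459, 3475 and 4315. None of the 11 macrophage genes passed the test, and Adgre1, Mrc1 and Itgam lay below the control level in both groups. Without leukemias 3, 5 and 7, 23 of 39 mitosis genes and 704 of all 8251 genes fell, against 30 and 983 over all arrays. The mean change of the mitosis genes was then -0.65, against -0.76 over all arrays. The other 5 leukemias, 1, 2, 4, 6 and 8, had macrophage sums of 1325, 1181, 931, 1085 and 1112, and mitosis means of -0.37, -0.54, -0.97, -0.40 and -0.94. Summed markers of B cells (616 to 1317 in leukemias, 617 to 618 in thymocytes), dendritic cells (368 to 490, 372 to 402), NK cells (47.7 to 80.8, 58.0 to 60.5), granulocytes (382 to 528, 578 to 711), erythroid cells (1049 to 6190, 3285 to 6813) and stroma (724 to 1046, 789 to 911) were also measured. Of these, 3 of 6 granulocyte genes were lower (S100a8 at -1.66, S100a9 at -0.91 with leukemias near the control level, and Camp at -0.49). Of 9 stroma genes 1 was higher, Epcam, below the control level in both groups. None of the B cell, dendritic, NK or erythroid genes passed by limma. Their part in the result was not tested. As a measure of RNA integrity, the log2 difference between the 3′ and 5′ probe sets of Gapdh was -0.09 ± 0.07 (SD, n = 8) in leukemias and -0.09 ± 0.05 (SD, n = 4) in thymocytes.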

How the data were processed

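RNA abundance was measured with Affymetrix expression arrays hybridised with biotin-labelled target made from total RNA, per the labels' protocols. The authors deposited linear intensities, 1 per probe set and array, and the submitters' processing notes name RMA. Its version is not given in the sources consulted. Array medians lay between 66.48 and 70.18, all values were above 0, and log2 was taken without offset or further normalization. Precision is limited by the number of arrays.

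Of 12488 probe sets, 66 were controls. The platform annotation gave 1 gene for 10833, several for 396 and none for 1193 of the rest. Groups were compared with the lmFit and eBayes functions of limma (version 3.58.1, R 4.3.3) in a two-sided test. Group was the only term, with Benjamini-Hochberg adjustment over 8251 genes. The code was checked on simulated arrays with independent noise and known changes larger than most of those of the mitosis genes. That check does not cover smaller changes or genes correlated over arrays. Suffixes _s, _f, _r, _g and _i of probe set names were read as possible cross-hybridization. A gene was near the control level where its group mean lay below the mean over arrays of the control percentile. A fold is then a lower bound against the higher of that percentile and the measured value.

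All analysed mitosis genes are named. Of each other list up to 3 genes with the largest moderated statistic are named, with exceptions marked. Members and lists were chosen with earlier results of these data known. Protein sequences were not used here. Promoter sequences are from RefSeq (GRCm38.p6) and were matched by symbol. Alternatives were a brightness filter, quantile normalization, array centring, trend and robust variance, array weights, leaving out each array, title numbers as a block or alone, adjusted p under 0.01, treat against a 1.5-fold change, other probe set rules and an exact rank-sum test. Leaving out leukemias 3, 5 and 7 was added after their macrophage markers were seen.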

Additional observations from a re-analysis of the deposited data

Results flagged for a closer look

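Of 78 gene and group combinations, 3 held an array far from the others of its group by Dixon's criterion, which chance alone meets in about 1 of 20 groups. Mki67 in thymocyte array 4 was at 9.46, with the next array at 9.01, a gap of 0.912 of the group's range. Ect2 in leukemia 2 was at 7.09, with the next leukemia at 6.50, a gap of 0.564 of the range, and it still lay below every thymocyte array. Racgap1 in leukemia 1 was at 8.68, with the next leukemia at 7.45, a gap of 0.581 of the range. The mitosis mean of leukemia 1 over all 39 genes was -0.37.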

How the results depend on the processing

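No paired analysis was possible because the labels give no replicate numbers shared between the groups. Over 26 alternatives, none of the 30 genes that fell had a value above 0, and 20 of them passed in each fit that left out 1 array. With each array left out in turn there were 20 to 32 mitosis genes, 938 to 1618 genes overall (626 to 1135 lower), 26 to 44 other mitosis genes (24 to 41 lower) and 10 to 21 S-phase genes, and without thymocyte array 2 the other mitosis genes were 26 (24 lower). S-phase genes numbered 11, 10 and 11 without thymocyte arrays 1, 2 and 4, and genes overall 938 (626 lower) without thymocyte array 1, with 655 lower without array 2. At adjusted p under 0.01, a stricter threshold by construction, 816 genes (557 lower), 18 mitosis, 21 other mitosis and 10 S-phase genes remained past it. Treat against a 1.5-fold change gave 102 genes (39 lower), 1 mitosis gene, 1 other mitosis gene and 1 S-phase gene. Arrays without a title number of 4 digits, with a lone thymocyte array assumed to vary like the leukemias, gave 4 genes (3 lower) and 0 of each list, where 28 mitosis, 30 other mitosis and 17 S-phase genes were lower at an unadjusted p under 0.05 by limma. Array weights gave 2636 genes (1597 lower) and 30 S-phase genes (29 lower), and the exact rank-sum test 10 S-phase genes. Without leukemias 3, 5 and 7 there were 26 other mitosis genes (25 lower), and Ccna2, Ccnb2, Cdk1, Cdc25c, Cdc20, Birc5 and Tacc3 no longer passed. Of the 12 fits without 1 array, Birc5 lost its call in 10, Cdc25c in 9, Ccnb2 in 7, Tacc3 in 4, Cdk1 and Nek2 in 3 (thymocyte arrays 1, 2 and 4), Ccna2, Cdc20 and Cks2 in 2 (thymocyte arrays 2 and 4) and Incenp in 1 (thymocyte array 4), while Cdca8 gained one in 2 and Aurkb, Racgap1 and Ube2c in 1. The cause of these changes was not tested. Some of these fits had fewer arrays or a stricter threshold.

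The change of Pttg1, -0.01, turned to 0.0515 with quantile normalization, 0.0014 with centring, 0.0218 with array weights, 0.0119 with the title-number block and 0.0881 within arrays with 4 digits, and lay between -0.0491 and 0.0172 without 1 array. The change of Cenpe, 0.03 near the control level, turned to -0.0401 with array weights, -0.0274 with the title-number block, -0.0029 and -0.0799 within arrays with and without 4 digits, -0.175 without cross-hybridizing probe sets and -0.0744 as the mean of its probe sets, and lay between -0.0397 and 0.0939 without 1 array. In all of these fits neither gene passed the test.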
